A study of Mus musculus with 6 samples.

Results

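The colony-stimulating factors and their receptors were followed through the named ligand genes Csf1, Csf2 and Csf3 and the receptor genes Csf1r, Csf2ra, Csf2rb and Csf3r. These 7 of 23185 named genes were taken by name, and each was read from its own probe set. RNA came from macrophages that thioglycollate, an irritant, had drawn into the mouse peritoneal cavity by 4 days after injection. The mice were C57BL/6J animals without Tet2, a dioxygenase that oxidises 5-methylcytosine in DNA, or their wild-type littermates. The cells were plated in medium with serum, received no other agent, and gave RNA 10 h later. Each genotype had 3 arrays, labelled replicates 4, 5 and 6. How Tet2 was deleted, and the sex and age of the mice, were not given in the sources used here. The labels speak of biological replicates without naming separate animals, and p-values therefore cover only the spread among these samples, which may be technical.

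Macrophage colony-stimulating factor, the product of Csf1, keeps macrophages and their precursors alive through the receptor tyrosine kinase encoded by Csf1r, which also binds interleukin-34. Granulocyte-macrophage colony-stimulating factor, the product of Csf2, binds the alpha chain Csf2ra and then signals through the shared beta chain Csf2rb and the kinase JAK2. Granulocyte colony-stimulating factor, the product of Csf3, acts through Csf3r, best known from neutrophils and also carried by monocytes and some macrophages.

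The title and the genotype characteristic contradict each other for 4 of the 6 samples. Groups follow the title, and every direction refers to the libraries labelled Tet2-/- there. Tet2 itself differed by -0.12 (limma adjusted p = 0.998) and by 0.075 without wild-type replicate 4. The deleted part and the probe positions are not given here, so Tet2 does not check the labels. Array medians ran from 2.77 to 2.93 log2 units. Tet2-/- replicate 6 stood apart, with the highest median, the narrowest interquartile range (2.99 against 3.16 to 3.33) and the lowest mean correlation with the other arrays (0.982 against 0.986 to 0.989). The defining macrophage markers Adgre1 and Cd68 were brighter than 97.3% and 99.9% of probe sets over the 6 arrays. By limma, 0 of 25206 probe sets had an adjusted p under 0.05, the smallest being 0.197, and 910 had an unadjusted p under 0.05.

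No difference between the genotypes in these 7 genes was larger than the spread between arrays by the test used. By limma, 0 of 7 passed an adjusted p of 0.05, against 0% of all probe sets, and each had an adjusted p of 0.998. At an unadjusted p under 0.05 there were again 0 of 7, against a background of 3.61% (1.71% higher), and the groups overlapped for all 7, where they did not overlap for 7.41% of probe sets. Csf1, Csf2, Csf1r and Csf3r had the higher mean in Tet2-/- and the other 3 the lower, with a median difference of 0.01 beside 0 for all probe sets. Under a further quantile normalization or with median-centred arrays, the Csf1 difference turned negative. Grouped by the genotype characteristic instead of the title, all 7 had the lower mean in Tet2-/-. Csf1, Csf2, Csf1r and Csf3r thereby changed sign (-0.12, -0.13, -0.01 and -0.10). Csf3, Csf2ra and Csf2rb kept theirs (-0.033, -0.023 and -0.053). What did vary was the level from array to array within a genotype, most of all for Csf1, Csf2ra and Csf1r.

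**Figure D1:**
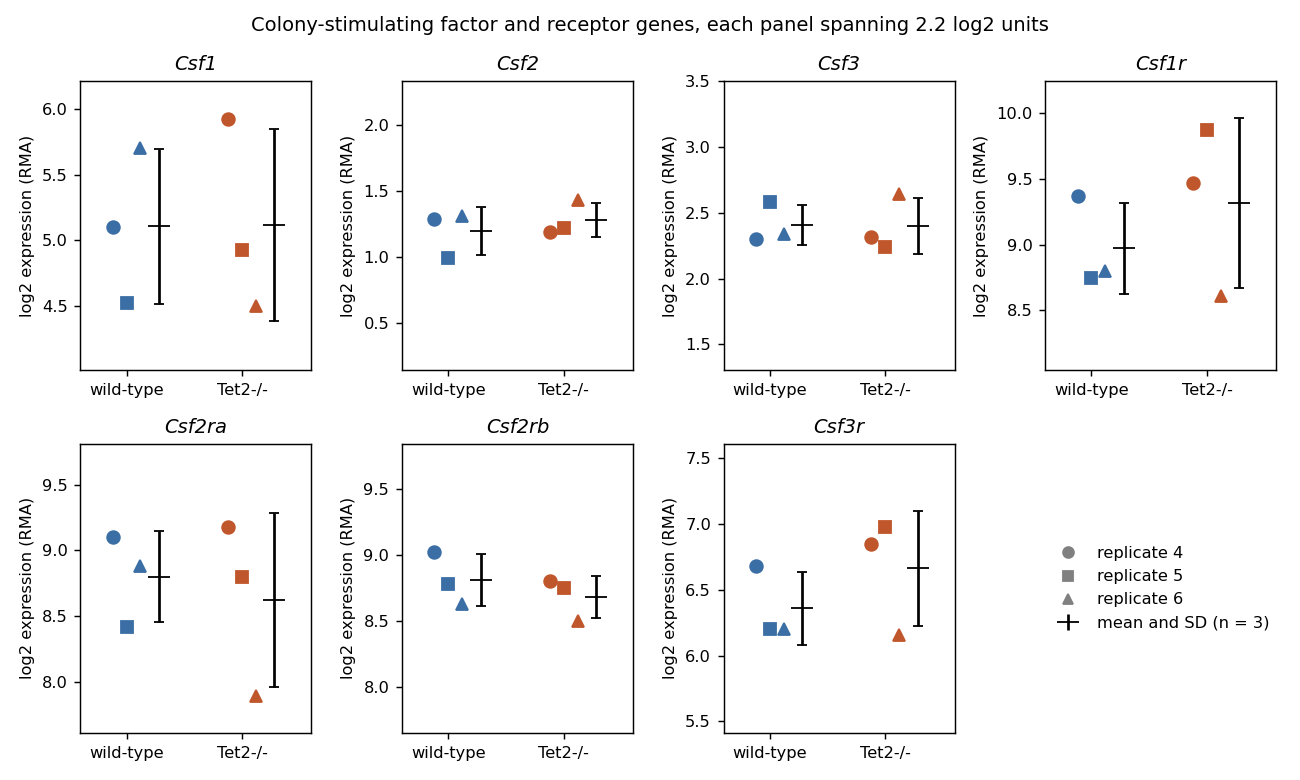
Log2 RMA expression of the 7 genes by genotype, with a point per array, replicates by marker shape, and the mean with SD (n = 3) as black bars. The groups overlap in every panel, and Tet2-/- replicate 6 is the lowest array for Csf1, Csf1r, Csf2ra, Csf2rb and Csf3r.

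Csf1r was bright on every array. Its log2 levels were 9.37, 8.75 and 8.80 in wild-type replicates 4, 5 and 6 and 9.47, 9.87 and 8.61 in Tet2-/- replicates 4, 5 and 6. Tet2-/- replicates 4 and 5 thus lay above every wild-type array and replicate 6 below every one. The wild-type mean was 8.97 ± 0.344 (SD, n = 3), and the Tet2-/- mean was 9.32 ± 0.644 (SD, n = 3). Their difference was 0.34 (standard error 0.307, 95% confidence interval -0.35 to 1.04), equal to 1.27-fold. Without Tet2-/- replicate 6 the difference was 0.70 (95% confidence interval 0.21 to 1.18, limma adjusted p = 0.381), and leaving out Tet2-/- replicate 5 gave 0.067. Leaving out wild-type replicate 4 gave 0.54. In bulk RNA, fewer macrophages and less of this transcript per macrophage cannot be told apart.

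Csf3r repeated that order of arrays at a lower signal. Its log2 levels were 6.68, 6.20 and 6.20 in wild-type replicates 4, 5 and 6 and 6.85, 6.98 and 6.16 in Tet2-/- replicates 4, 5 and 6. Again Tet2-/- replicates 4 and 5 exceeded all wild-type arrays, whereas replicate 6 lay just under the lowest of them. This arrangement, replicates 4 and 5 on top and replicate 6 at the bottom, held for 4.42% of all probe sets. The means were 6.36 ± 0.277 (SD, n = 3) and 6.66 ± 0.441 (SD, n = 3), a difference of 0.30 (standard error 0.234, 95% confidence interval -0.23 to 0.83). Without Tet2-/- replicate 6 the difference was 0.56 (95% confidence interval 0.16 to 0.95, limma adjusted p = 0.392), and leaving out wild-type replicate 4 gave 0.46. It was 0.145 without Tet2-/- replicate 5. With replicate 6 left out, Csf1r and Csf3r were the 2 of 7 genes that limma gave an unadjusted p under 0.05, against 9.87% of all probe sets in either direction and 4.96% higher. None of the 7 passed after adjustment there, against 0.0754%. Array weights, which gave that array less weight, likewise put these 2 under an unadjusted 0.05 (8.28% of probe sets, 4.12% higher) and 0 of 7 past adjustment (0.00793%). Across the 6 arrays Csf1r and Csf3r had a Pearson r of 0.986 and a Spearman rho of 0.986, a description over arrays that share their normalization.

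Markers of neutrophils, the classic carriers of the G-CSF receptor, were mostly dim, with 2 bright exceptions. Of 11 measured neutrophil markers, 2 were above the median level of all probe sets. These were S100a8 and Mmp8, brighter than 88.16% and 85.45% of probe sets. Ly6g and S100a9, which define the cell, were brighter than 31.9% and 29.0% of probe sets. The linear levels of the 11 markers summed to 182 to 191 in wild-type and 193 to 233 in Tet2-/- arrays, highest in Tet2-/- replicate 6, where Csf3r was lowest. S100a8 was at 7.19 there against 5.79 to 6.43 elsewhere. Mmp8 went the other way, at 5.26 there against 5.96 to 6.63 elsewhere. Of the 11 markers, 2 were lowest in that array, Mmp8 and the dim S100a9, against 20.5% of all probe sets. The part of neutrophils in the Csf3r levels was not tested.

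The GM-CSF receptor alpha chain Csf2ra had the opposite sign but the same low array. Its log2 levels were 9.10, 8.42 and 8.88 in wild-type replicates 4, 5 and 6 and 9.18, 8.80 and 7.89 in Tet2-/- replicates 4, 5 and 6. Tet2-/- replicates 4 and 5 lay among or just above the wild-type arrays, and replicate 6 lay clear below them. The means were 8.80 ± 0.347 (SD, n = 3) and 8.62 ± 0.663 (SD, n = 3), a difference of -0.18 (standard error 0.313, 95% confidence interval -0.89 to 0.53). The sign rested on Tet2-/- replicate 6, since the difference was 0.19 without it and 0.11 with array weights. Leaving out Tet2-/- replicate 4 gave -0.46, wild-type replicate 5 gave -0.37, Tet2-/- replicate 5 gave -0.27 and wild-type replicate 4 gave -0.03.

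The shared beta chain Csf2rb was the steadiest of the bright members. Its log2 levels were 9.02, 8.78 and 8.63 in wild-type replicates 4, 5 and 6 and 8.80, 8.75 and 8.50 in Tet2-/- replicates 4, 5 and 6. The ranges overlapped between 8.63 and 8.80. The means were 8.81 ± 0.197 (SD, n = 3) and 8.68 ± 0.161 (SD, n = 3), a difference of -0.13 (standard error 0.154, 95% confidence interval -0.48 to 0.22). That interval leaves room for a fall of up to 0.48 log2 units. The difference ran from -0.22 without wild-type replicate 6 to -0.022 without wild-type replicate 4, and was -0.035 without Tet2-/- replicate 6. Csf2rb2, the neighbouring paralogue that serves interleukin-3 in the mouse, was at 8.28, 7.86 and 7.99 in wild-type and 7.89, 7.80 and 7.54 in Tet2-/- replicates 4, 5 and 6. It differed by -0.30 (95% confidence interval -0.67 to 0.065, limma adjusted p = 0.998), with a single Tet2-/- array inside the wild-type range. Whether probes of these similar genes share signal is not given here, so neither is taken as a separate measurement of its gene.

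**Figure D2:**
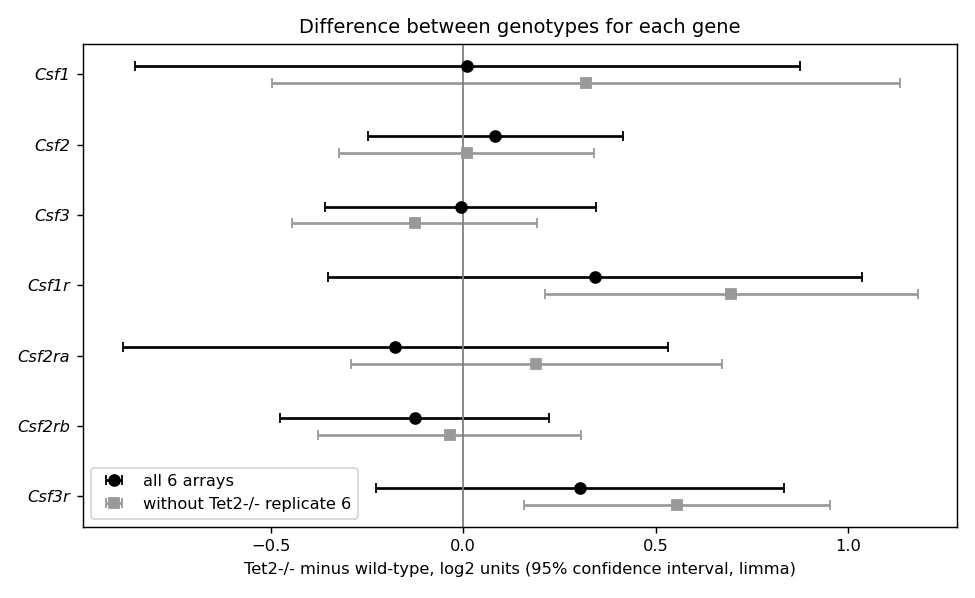
Tet2-/- minus wild-type in log2 units for each gene with its limma 95% confidence interval, over all 6 arrays (black circles) and without Tet2-/- replicate 6 (grey squares). All 7 black intervals span 0, and the grey intervals of Csf1r (0.21 to 1.18) and Csf3r (0.16 to 0.95) lie above it, neither gene passing after adjustment.

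Promoters are shown for Csf2ra and Csf3r, receptor genes that were above the median level and lowest in Tet2-/- replicate 6. After a further quantile normalization Csf3r was instead lowest in wild-type replicate 6. The promoters run from 250 bases before to 50 after the start site in RefSeq's table for GRCm38.p6. Entries of 4 of the 7 members were used (Csf1, Csf2, Csf2ra and Csf3r). Csf3, Csf1r and Csf2rb had no entry on the chromosomes searched. The search left out a chromosome, so an entry there would have been missed. Capitals mark GAGGAA, the purine-rich core of sites for Ets factors such as PU.1, searched on both strands.
Csf2ra, chr19:61228369-61228668, minus strand: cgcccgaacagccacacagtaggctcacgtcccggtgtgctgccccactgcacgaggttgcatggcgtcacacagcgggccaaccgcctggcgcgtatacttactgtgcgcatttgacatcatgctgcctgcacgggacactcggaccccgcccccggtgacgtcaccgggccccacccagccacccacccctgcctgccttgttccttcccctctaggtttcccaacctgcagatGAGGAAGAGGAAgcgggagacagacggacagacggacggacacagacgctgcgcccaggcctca
Csf3r, chr4:126024409-126024708, plus strand: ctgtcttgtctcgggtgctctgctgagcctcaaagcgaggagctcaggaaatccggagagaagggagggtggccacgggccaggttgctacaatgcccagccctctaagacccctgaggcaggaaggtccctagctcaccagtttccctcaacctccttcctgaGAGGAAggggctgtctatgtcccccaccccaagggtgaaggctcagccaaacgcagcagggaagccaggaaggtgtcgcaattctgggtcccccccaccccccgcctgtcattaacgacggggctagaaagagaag
Csf2ra held 2 adjoining, non-overlapping matches, beginning 14 and 8 bases before the start site, and Csf3r held 1, beginning 86 bases before it. The promoters of Csf1 and Csf2 held 0. The same letters occur in 28.3% of the 32851 promoters of that length, so a match is common and describes sequence only. Spi1, which encodes PU.1, was at 9.82, 9.65 and 9.75 in wild-type and 9.85, 9.78 and 9.22 in Tet2-/- replicates 4, 5 and 6, likewise lowest in replicate 6 (difference -0.12, limma adjusted p = 0.998, and 0.075 without that array).

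Among the ligands, Csf1 had a clear signal and the largest spread of the 7 genes. Its log2 levels were 5.10, 4.52 and 5.70 in wild-type replicates 4, 5 and 6 and 5.92, 4.93 and 4.50 in Tet2-/- replicates 4, 5 and 6. The highest and the lowest array were both Tet2-/-, with the wild-type arrays between them. The means were 5.11 ± 0.590 (SD, n = 3) and 5.12 ± 0.728 (SD, n = 3), a difference of 0.01 (standard error 0.382, 95% confidence interval -0.85 to 0.87). Equal means here go with a wide interval, which spans a change of 0.85 log2 units either way. Leaving out Tet2-/- replicate 4 gave -0.39, wild-type replicate 5 gave -0.28 and wild-type replicate 6 gave 0.31. Leaving out Tet2-/- replicate 6 gave 0.32, Tet2-/- replicate 5 gave 0.10 and wild-type replicate 4 gave 0.0067.

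Fibroblasts and mesothelium, which also make Csf1, were read through 6 markers. Their linear levels summed to 263 to 492 in wild-type and 296 to 403 in Tet2-/- arrays, and 4 of the 6 were above the median level. Dcn, a matrix proteoglycan of fibroblasts singled out after its values were seen, was at 6.62, 6.94 and 7.78 in wild-type and 7.64, 6.86 and 6.94 in Tet2-/- replicates 4, 5 and 6. The arrays highest for Csf1, wild-type replicate 6 and Tet2-/- replicate 4, were also the highest for Dcn. Over the 6 arrays Pearson's r was 0.780 and Spearman's rho 0.406, so the order of the other 4 arrays was not shared. The collagen genes Col1a1 and Col3a1 of the same list followed Csf1 less closely, with Pearson's r of 0.436 and 0.432 and a Spearman rho of 0.257 each. Both had their second highest level, 6.90 and 6.04, in Tet2-/- replicate 6, where Csf1 was lowest. The part of these cells in the Csf1 levels was not tested.

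Csf2 and Csf3, ligand genes known to be induced by stimulation, were dim in all arrays. Csf2 log2 levels were 1.29, 0.99 and 1.31 in wild-type and 1.19, 1.22 and 1.43 in Tet2-/- replicates 4, 5 and 6, brighter on average than 9.15% of probe sets. The means were 1.20 ± 0.179 (SD, n = 3) and 1.28 ± 0.131 (SD, n = 3), a difference of 0.083 (standard error 0.147, 95% confidence interval -0.25 to 0.42). Leaving out single arrays moved it between -0.02 (wild-type replicate 5) and 0.14 (wild-type replicate 6), with 0.13 for either replicate 4 and 0.0083 for Tet2-/- replicate 6. Csf3 was at 2.30, 2.58 and 2.34 in wild-type and 2.32, 2.24 and 2.64 in Tet2-/- replicates 4, 5 and 6. It was less dim than Csf2, brighter on average than 41.8% of probe sets. Its means were 2.41 ± 0.151 (SD, n = 3) and 2.40 ± 0.212 (SD, n = 3), a difference of -0.0067 (standard error 0.156, 95% confidence interval -0.36 to 0.35). Leaving out single arrays moved it between -0.13 (Tet2-/- replicate 6) and 0.08 (wild-type replicate 5). Background levels per probe set were not used here, so whether either transcript was present cannot be said, and RMA compresses differences at such levels.

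The spread between arrays of the same genotype set the bright members apart from one another. The pooled within-genotype SD was 0.663 for Csf1, 0.529 for Csf2ra, 0.516 for Csf1r, 0.368 for Csf3r and 0.180 for Csf2rb, beside a median of 0.219 among probe sets above the median level. Among those 12597 probe sets, these stand at percentiles 98.9, 96.8, 96.4, 86.1 and 35.1 in that order. Tet2-/- replicate 6 was the lowest array for all 5, which held for 32.9% of probe sets above the median level and 20.5% of all, and was the highest array for the dim Csf2 and Csf3. After a further quantile normalization the highest array for Csf3 was wild-type replicate 5, and Tet2-/- replicate 6 was lowest for 3 of the 5, Csf1r, Csf2ra and Csf2rb, against 27.3% of those probe sets. Wild-type replicate 5 was then lowest for Csf1 and wild-type replicate 6 for Csf3r. With that normalization Csf1r and Csf3r differed by 0.41 and 0.32.

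**Figure D3:**
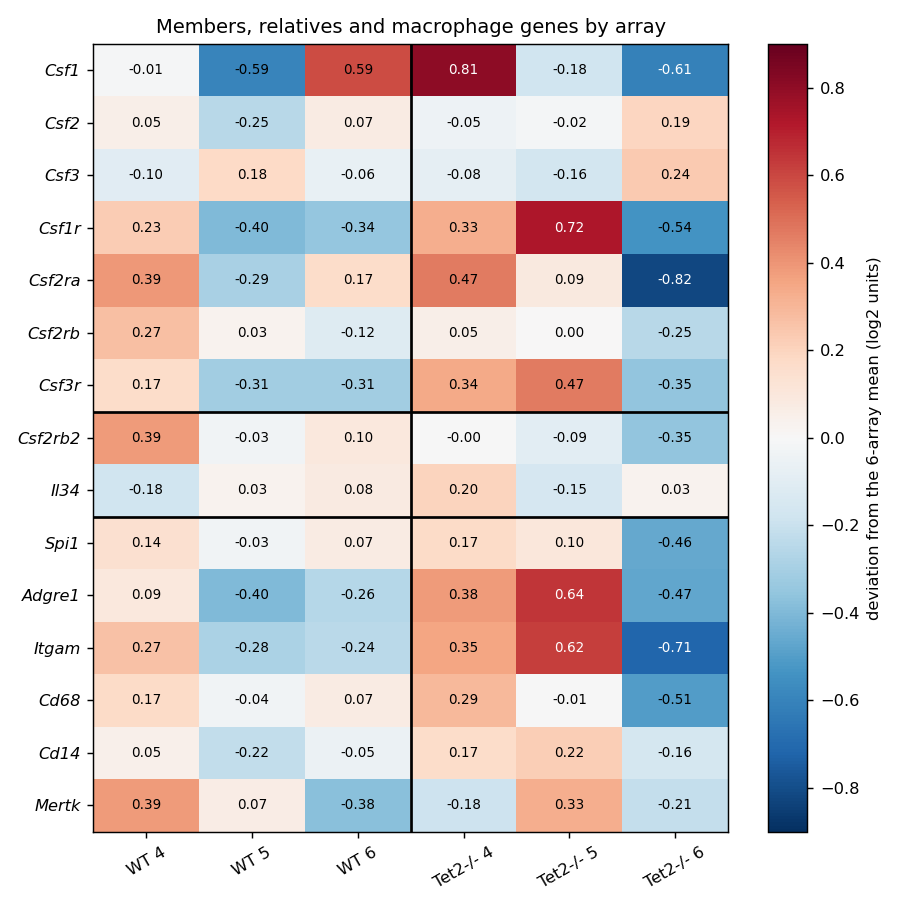
Deviation of each array (columns) from the 6-array mean in log2 units (colour and number) for the 7 genes, the relatives Csf2rb2 and Il34, and macrophage genes. Csf1r and Csf3r share their pattern with Adgre1 and Itgam, Csf2ra has its lowest value in Tet2-/- replicate 6, and Csf1 is highest in wild-type replicate 6 and Tet2-/- replicate 4.

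Some macrophage markers, not all, shared the array pattern of Csf1r. Adgre1, the F4/80 antigen, was between 7.86 and 8.35 in the wild-type arrays and at 8.64, 8.90 and 7.79 in Tet2-/- replicates 4, 5 and 6, the same order of arrays as Csf1r (Pearson's r 0.988 and Spearman's rho 1 over the 6 arrays). Itgam, the CD11b integrin chain, gave a Pearson r of 0.973 with Csf1r. Other markers ran differently, with Fcgr1 highest in wild-type replicate 6 (8.10), Mertk lowest there (7.39) and Cd14 lowest in wild-type replicate 5 (8.57). Csf2rb had a Pearson r of 0.457 with Adgre1. Of 6 measured macrophage markers, 3 were higher and 3 lower in Tet2-/-. All 6 were above the median level, and 4 were lowest in Tet2-/- replicate 6, against 32.9% of probe sets above that level. Linear levels of the 6 markers summed to 3658 to 4485 in wild-type and 2858 to 4774 in Tet2-/- arrays. Fcgr1 and Adgre1, the members with the smallest p, differed by -0.23 and 0.37 (limma adjusted p = 0.998 each). Adgre1 differed by 0.70 without Tet2-/- replicate 6. The part of macrophage content in the receptor levels was not tested.

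**Figure D4:**
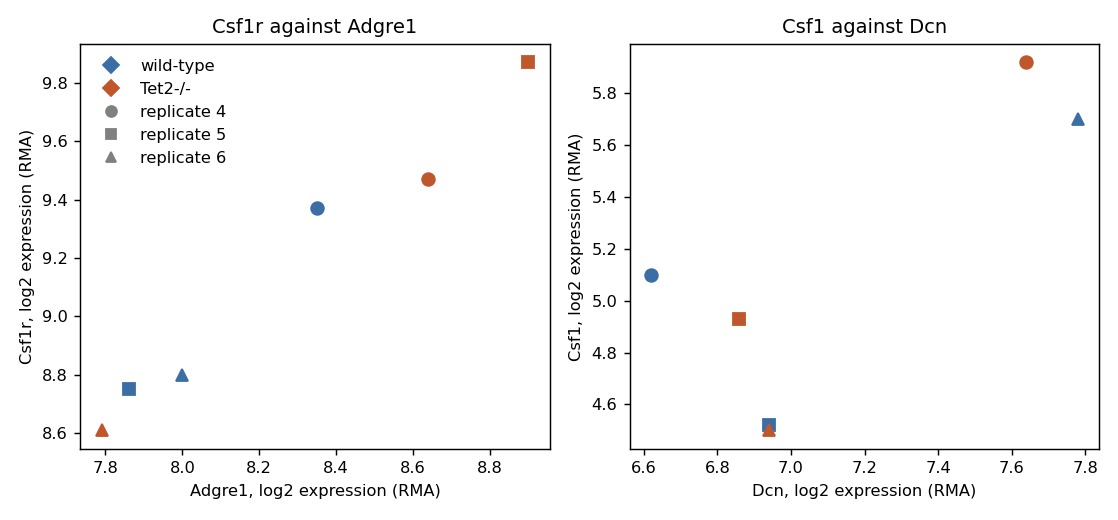
Log2 RMA expression of Csf1r against Adgre1 (left) and of Csf1 against Dcn (right), with a point for each of the 6 arrays, colours for genotype and marker shapes for replicate. Csf1r and Adgre1 order the 6 arrays alike, whereas Csf1 and Dcn share their 2 highest arrays and not the order of the rest.

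The genes most alike in pattern over the 6 arrays were found among 11765 other named genes above the median level. For Csf1r these were 2610507B11Rik, Marveld1 and Sptbn1 (Pearson's r 0.997, 0.996 and 0.996). Csf3r was closest to Ikzf1, Mta3 and Ing3 (0.999, 0.998 and 0.996), and Csf2ra to Letmd1, Patl1 and Tcf20 (0.998, 0.991 and 0.990). Csf2rb was closest to Rnf115, Dbp and Ptger1 (0.991, 0.989 and 0.986). Csf1 was closest to Bmp1, Fosl1 and Mmp14 (0.991, 0.990 and 0.990), a procollagen protease, an AP-1 subunit and a membrane metalloproteinase. These genes were picked as the highest of many candidates over only 6 arrays, and the values describe pattern alone.

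Of 10 related ligand and receptor genes measured, 3 were higher and 7 lower in Tet2-/-, 0 passed an adjusted p of 0.05, and the median difference was -0.017. The Kit ligand gene Kitl differed by -0.35, the interleukin-5 receptor chain Il5ra by 0.27 and the interleukin-3 receptor alpha chain Il3ra by -0.24 (limma adjusted p = 0.998 each). Omitting Tet2-/- replicate 5 brought Il3ra to -0.052 and Kitl to -0.21, and omitting Tet2-/- replicate 6 brought Il3ra to -0.38. Il5ra was the 1 gene of the 10 whose groups did not overlap, against 7.41% of all probe sets, at a low level that only 22.5% of probe sets fell under. Il34, the other ligand of Csf1r, was dim, with a wild-type mean of 2.52 ± 0.138 (SD, n = 3) and a Tet2-/- mean of 2.57 ± 0.175 (SD, n = 3). The difference of 0.05 turned to -0.028 when wild-type replicate 4 was left out and to -0.037 when Tet2-/- replicate 4 was.

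Signalling genes downstream of CSF1R were evenly divided, 10 higher and 10 lower of 20 measured (24 listed), with 0 past the adjusted threshold and a median of 0.022. Leaving out single arrays moved that median between -0.08 (Tet2-/- replicate 5) and 0.185 (Tet2-/- replicate 6). The adaptor Dok2 differed by -0.30, the exchange factor Vav1 by 0.35, the protease Adam17, which sheds Csf1r from the cell surface, by 0.27 and the adaptor Tyrobp by -0.28 (limma adjusted p = 0.998 each). All 20 were above the median level. Of them, 12 were lowest in Tet2-/- replicate 6, against 32.9% of all probe sets above that level. All 5 members above the median level were lowest there too.

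The JAK-STAT genes used by the GM-CSF and G-CSF receptors had 11 of 14 measured members higher (15 listed) and 0 past the adjusted threshold, with a median of 0.082. Single arrays set that median, which was -0.032 when Tet2-/- replicate 5 was omitted, 0.23 when Tet2-/- replicate 6 was, and -0.0083 by the genotype characteristic. Socs3, the feedback inhibitor of the G-CSF receptor, was at 3.60, 3.47 and 3.33 in wild-type and 3.73, 4.02 and 3.68 in Tet2-/- replicates 4, 5 and 6. All 3 Tet2-/- arrays lay above the wild-type arrays, a difference of 0.34 (95% confidence interval 0.0082 to 0.68, limma unadjusted p = 0.0457, adjusted p = 0.998). It was the 1 gene of 14 at an unadjusted p under 0.05 and the 1 without overlap, counts to be read against 3.61% and 7.41% of all probe sets. Cish, an inhibitor induced through STAT5, differed by -0.29, the kinase gene Pim1 by -0.21 and Socs2 by 0.19 (limma adjusted p = 0.998 each).

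Transcription factors that act at the receptor genes had 5 of 7 measured members higher (8 listed) and 0 past the threshold, with a median of 0.14 that ran from 0.047 (Tet2-/- replicate 5 omitted) to 0.245 (wild-type replicate 4 omitted). Fli1 differed by 0.30, Runx1 by -0.21, Irf8 by 0.22 and Cebpa by 0.18 (limma adjusted p = 0.998 each). Omitting 1 array moved Fli1 between 0.12 and 0.59 (Tet2-/- replicates 5 and 6), and Runx1 between -0.35 and -0.095 (wild-type replicate 5 and Tet2-/- replicate 6). It moved Irf8 between 0.053 and 0.35 and Cebpa between 0.082 and 0.33 (wild-type replicates 6 and 4 in both). For comparison, the median over all 25206 probe sets was 0, with 12396 higher and 12597 lower.

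Macrophage genes that respond to GM-CSF leaned the other way, 7 of 8 lower and 1, Ccl22, higher, with a median of -0.23 and 0 past the threshold. Itgax, the CD11c integrin chain, was at 7.05, 6.80 and 7.11 in wild-type and 5.68, 5.22 and 5.59 in Tet2-/- replicates 4, 5 and 6, without overlap. It differed by -1.49 (95% confidence interval -1.86 to -1.12, limma adjusted p = 0.197), and by -1.54 without Tet2-/- replicate 6, where it passed (limma adjusted p = 0.0323). It was the 1 gene of these 8 to pass there, against 0.0754% of all probe sets. Itgax was known from earlier results of these data when the list was written, so its place there is no independent support. Pparg, a nuclear receptor that GM-CSF induces in alveolar macrophages, differed by -0.33, and the chemokine gene Ccl22 by 0.40 (limma adjusted p = 0.998 each). With Tet2-/- replicate 5 omitted they were at -0.19 and 0.13. Cish, also on this list, is given above.

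**Figure D5:**
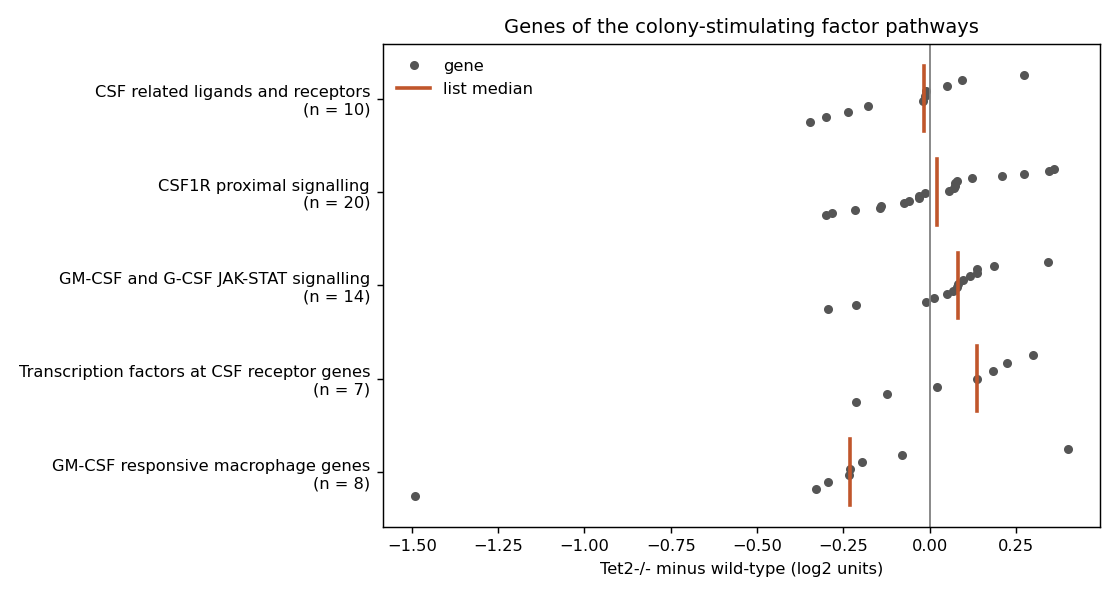
Tet2-/- minus wild-type in log2 units for each measured gene (grey points) of the 5 pathway lists, with the list median as an orange bar. Medians lie between -0.23 and 0.14, and the point at -1.49 is Itgax.

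Other cells of the peritoneal cavity could carry these genes too. Resident large peritoneal macrophage markers had 5 of 5 higher, with Cd5l at 0.74 and Alox15 at 2.08, and monocyte markers 4 of 4 higher, with Ccr2 at 1.38 and Cx3cr1 at 1.11. Their linear sums were 219 to 258 and 135 to 180 in wild-type and 258 to 590 and 236 to 559 in Tet2-/- arrays. Both sums were higher in all 3 Tet2-/- arrays than in every wild-type array. For the resident markers this was by 258.2 against 257.5 in Tet2-/- replicate 6, where Csf1r lay below every wild-type array. Gene by gene, groups did not overlap for 1 of 5 resident markers, Cd5l, and 2 of 4 monocyte markers, against 7.41% of all probe sets. In Tet2-/- replicate 6 the resident markers other than Cd5l lay within the wild-type range. Over the 6 arrays, Pearson's r with Alox15 and with Ccr2 was 0.907 and 0.734 for Csf1r and 0.924 and 0.774 for Csf3r. It was 0.404 and 0.159 for Csf2ra and 0.210 and -0.062 for Csf2rb. The B-cell markers Cd79b and Cd79a differed by 1.55 and 1.59, and their list summed to 27.0 to 31.1 and 41.0 to 135. None passed over the 6 arrays by limma, the lowest adjusted p being 0.665 for Ccr2. Without Tet2-/- replicate 6, Alox15, Ccr2, Cd79a and the resident macrophage gene Icam2, named after its values were seen, passed (differences 2.97, 1.69, 2.22 and 1.61, limma adjusted p = 0.0394, 0.0227, 0.0307 and 0.0323). They were 2 of 5 resident, 1 of 4 monocyte and 1 of 5 B-cell markers, against 0.0754% of all probe sets. The part of these cells in the receptor levels was not tested.

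Markers of neutrophils, eosinophils, mast cells, dendritic cells, and T and NK cells were mostly below the median level (1 of 5, 1 of 6, 0 of 5 and 1 of 6 above it for the last 4). Among eosinophil genes, Siglecf differed by -1.21 and Il5ra by 0.27, with list sums of 46.2 to 60.7 in wild-type and 25.4 to 39.3 in Tet2-/-. Siglecf was the 1 gene of these 5 above the median level. The dim Prg2, Epx and Ccr3 differed by only -0.013, 0.027 and -0.07, so the lower sums reflect Siglecf. Mast cell genes Tpsb2 and Mcpt4 differed by 0.30 and 0.21, dendritic cell genes Xcr1 and Flt3 by -0.18 and 0.093, and T and NK cell genes Klrb1c and Cd3g by 0.15 and -0.14. Neutrophil genes Mpo and Ltf differed by 0.46 and 0.14, S100a8, S100a9 and Ly6g by 0.17, -0.07 and 0.28, and the stromal genes Col3a1 and Krt19 by 0.42 and -0.13. None passed by limma's adjusted p, the lowest among them being 0.879 for Siglecf.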

How the data were processed

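The authors deposited log2 RMA expression values, and the submitters' processing notes name affy 1.36.1. RMA corrects background, sets arrays to shared quantiles and summarises the probes of a set. That the scale is log2 was inferred from RMA and the values' range. Whether the 6 arrays were normalized together, and the probe definition, were not given in the sources used here. Scanner files were not used here. The number of arrays limits the precision.

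Of 25206 probe sets, the platform annotation named 23185 with 1 gene, 0 with several and 2021 with none. The latter went into the fit but under no gene name. Matched by identifier to RefSeq (GRCm38.p6), 0 symbols changed. Each was fitted with limma 3.58.1 in R 4.3.3 (lmFit, eBayes, two-sided, no covariate), with Benjamini-Hochberg adjustment over all probe sets and a threshold of 0.05. Fit scripts were tested on simulated data.

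The 7 members and the 5 pathway and 10 marker lists (58 of 64 pathway genes measured) were chosen with earlier results of these data known. Lists are described by counts and medians, without a test. Text also names Tet2, Csf2rb2, Il34, defining markers, the 4 pathway and 2 marker genes per list with the smallest p, and the 3 genes closest in pattern to each member above the median level. Itgam, Spi1, Mmp8, Icam2, Dcn, Prg2, Epx and Ccr3 were named after their values were seen. Alternatives were the genotype characteristic as grouping, a replicate block, a variance trend, array weights, other scalings, brighter probe sets and leaving out each array. Replicate numbers were not used to pair the samples in the main fit.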

Additional observations from a re-analysis of the deposited data

How the results depend on the processing

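No member passed limma's adjusted threshold under any setting run, the lowest adjusted p being 0.381 for Csf1r without Tet2-/- replicate 6. Grouped by the genotype characteristic, the differences were -0.12 for Csf1, -0.13 for Csf2, -0.01 for Csf1r and -0.10 for Csf3r. They were -0.033 for Csf3, -0.023 for Csf2ra and -0.053 for Csf2rb, so every member was lower. Csf1 was at -0.015 with median-centred arrays and -0.0094 after a further quantile normalization, and Csf2ra at 0.11 with array weights. Leaving out single arrays gave -0.39 to 0.32 for Csf1, -0.02 to 0.14 for Csf2, -0.13 to 0.08 for Csf3 and -0.46 to 0.19 for Csf2ra. The causes were not tested.

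Over all probe sets, 0 passed as reported and at an adjusted p of 0.1, 2 with array weights, and 0 to 19 when single arrays were left out (1 without wild-type replicate 4, 19 without Tet2-/- replicate 6). At an unadjusted p under 0.05 there were 910, with 413 by the characteristic, 2088 with array weights, 461 among the brighter probe sets (fewer tested), 202 at p under 0.01 and 632 to 2489 when single arrays were left out. The median of related ligands and receptors was -0.27 among the brighter probe sets, which hold 4 of its 10 genes, and -0.14 to 0.0175 when single arrays were left out (-0.14 without wild-type replicate 4). That of GM-CSF responsive genes was 0.14 by the characteristic.

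The replicate number as a block changed no call: 0 probe sets passed and 897 had an unadjusted p under 0.05. Same-numbered arrays did not deviate together throughout (r = 0.15, -0.215 and 0.112 for replicates 4, 5 and 6). The deviations were taken from each genotype's own mean over few arrays. These values therefore cannot show whether same-numbered arrays shared more than a number.

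By the characteristic other named genes changed sign too. In the pathways these were Dok2 (0.18), Vav1 (-0.093), Tyrobp (0.077), Socs3 (-0.063), Pim1 (0.12), Socs2 (-0.11), Runx1 (0.073), Irf8 (-0.17), Cebpa (-0.22), Itgax (0.27) and Il34 (-0.03). Myeloid markers were Fcgr1 (0.16), Adgre1 (-0.0067), Cd68 (0.023), Cd5l (-0.063), Alox15 (-0.23), Ccr2 (-0.25), Cx3cr1 (-0.48), Mpo (-0.033), Ltf (-0.097), S100a8 (-0.04), S100a9 (0.40) and Ly6g (-0.61). The rest were Siglecf (0.013), Tpsb2 (-0.13), Mcpt4 (-0.09), Xcr1 (0.057), Flt3 (-0.21), Klrb1c (-0.11), Cd3g (0.21) and Col3a1 (-0.14). Array weights turned Flt3 (-0.027), Cd68 (0.036) and S100a8 (-0.13). Leaving out single arrays gave -0.078 to 0.20 for Flt3, -0.33 to 0.073 for Cd68, -0.19 to 0.51 for S100a8 and -0.072 to 0.53 for Ly6g, each sign turning without Tet2-/- replicate 6, where S100a9 was at 0.05. S100a9 was at 0.125 without wild-type replicate 5, Tet2 at 0.075 and Il34 at -0.028 without wild-type replicate 4, and Il34 at -0.037 without Tet2-/- replicate 4.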
